A study of Mus musculus with 6 samples.

Results

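Mitochondrial ribosomal proteins were compared between 393P_ZEB1 and 393P_vector cells. The genes were chosen by a rule on names, with earlier results of these data known. Members are rows of the deposited count tables whose symbol is Mrpl or Mrps, a number and at most 1 letter, a to c. The rule found 76 of the 24214 rows. All 76 passed the filter on low counts that left 13892 rows for testing. The line from which 393P_vector and 393P_ZEB1 derive is an epithelial murine lung adenocarcinoma (LUAD) cell line, labelled as KP lung cancer cells of strain C57BL/6. ZEB1 is a transcription factor known to repress epithelial genes and to drive epithelial-to-mesenchymal transition (EMT). In each group the samples are numbered 1 to 3. In all, 3 samples had been transfected with the empty vector (393P_vector) and 3 with a ZEB1 expression vector (393P_ZEB1), so that both groups share the parental line and its tumor alleles. Total RNA was sequenced on the SOLiD platform, and total counts ranged from 54442450 to 79158012 per sample. The sources do not give the promoter of the expression vector, whether a transfectant is 1 clone, or whether samples of a condition are separate cultures, so that p-values measure the spread between these samples, which may be technical. In bulk RNA, fewer cells with a transcript and less of it per cell cannot be told apart.

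Levels are given in CPM, which relate each count to the TMM-normalized library size, and differences are log2 fold changes of 393P_ZEB1 over 393P_vector from the edgeR quasi-likelihood test. A gene was called at a Benjamini-Hochberg adjusted p below 0.05 over all tested genes. Zeb1 itself rose from 21.5 ± 0.435 CPM to 51.7 ± 3.01 CPM (SD, n = 3, edgeR adjusted p = 6.06e-05). Of 8 epithelial markers 7 were called lower, and 5 of 5 mesenchymal markers were called higher. Of 6 lung lineage markers Foxa2 alone was tested, at 31.8 to 49.7 CPM, and Scgb1a1 had 0 counts in each sample, which allows up to 0.0361 to 0.0561 CPM by sample. Of 6 immune and endothelial markers none exceeded 3.08 CPM. Replicate 3 of 393P_vector stood apart from its group: 8.24% and 9.03% of tested genes differed at least 2-fold between it and replicates 1 and 2, against 1.95% between replicates 1 and 2 and 2.4% to 2.68% between 393P_ZEB1 replicates. Fold changes of most members named below are therefore given with and without that sample.

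The mitochondrial ribosome (mitoribosome) translates the few messenger RNAs of the mitochondrial genome, all of which encode subunits of the oxidative phosphorylation complexes. Its RNAs are made inside the organelle, whereas its proteins are encoded in the nucleus, made in the cytosol and imported. The small subunit reads the messenger, and the large subunit forms peptide bonds and passes the chain through an exit tunnel held at the inner membrane. Part of the proteins descend from the bacterial ancestor and part are found in mitochondria alone. Mitochondrially encoded genes were not analysed here.

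The upstream sequences of 5 called members and of the 1 pair of members that share a divergent promoter are shown. The 5 are among the members whose fold changes are given below, and the pair is shown for its shared promoter and was not called. Sequences are those of RefSeq on GRCm38.p6, printed 5′ to 3′ on the strand of the named gene from at most 150 bases before its start site, and bases inside exons of coding transcripts are left out. Capitals mark motif letters on either strand. Mrpl10 and Mrpl24 were called higher in 393P_ZEB1, and Mrpl2, Mrpl51 and Mrps18a were called lower. The Mrps11 sequence is part of the stretch between the starts of Mrps11 and Mrpl46, which are transcribed away from each other.
Mrpl10, chr11:97041432-97041559, plus strand: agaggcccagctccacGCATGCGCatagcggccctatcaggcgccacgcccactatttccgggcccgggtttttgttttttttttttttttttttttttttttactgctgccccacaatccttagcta
Mrpl24, chr3:87919394-87919505, plus strand: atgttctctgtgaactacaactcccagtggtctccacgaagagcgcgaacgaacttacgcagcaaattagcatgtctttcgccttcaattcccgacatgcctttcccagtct
Mrpl2, chr17:46646087-46646228, plus strand: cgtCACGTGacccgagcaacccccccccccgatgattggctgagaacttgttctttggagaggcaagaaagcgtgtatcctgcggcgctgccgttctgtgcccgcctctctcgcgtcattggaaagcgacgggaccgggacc
Mrpl51, chr6:125192050-125192164, plus strand: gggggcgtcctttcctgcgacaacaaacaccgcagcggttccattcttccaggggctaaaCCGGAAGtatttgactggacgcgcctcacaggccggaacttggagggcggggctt
Mrps18a, chr17:46110854-46110985, plus strand: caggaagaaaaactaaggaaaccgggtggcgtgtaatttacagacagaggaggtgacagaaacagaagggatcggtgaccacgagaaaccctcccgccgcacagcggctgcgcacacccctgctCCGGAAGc
Mrps11, chr7:78783090-78783118, plus strand: ccatgaggcaacgcgggccggcgaggggc

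The capitals are an NRF1-type motif in Mrpl10, the E-box CACGTG in Mrpl2 and an ETS core in Mrpl51 and Mrps18a, and the printed stretches of Mrpl24 and Mrps11 hold none of the searched letters. The search covered 300 bases, 250 before and 50 after the start site, on both strands, for the 67 members and 9678 other tested genes with a RefSeq promoter. The ETS core CCGGAAG, bound by GABP among other factors, was held by 23 members (34.3%) and by 17.6% of the other promoters. The YY1-type motif AAGATGGC was held by 12 members (17.9%, others 4.55%), and the NRF1-type motif GCGCATGC by 8 (11.9%, others 5.36%). The E-box CACCTG, the core of the sites that ZEB1 binds, was held by 8 members (11.9%, others 17.5%), and CACGTG by 5 (7.46%, others 10.3%). No searched motif contains another. Of the 8 members with CACCTG, Mrpl27 was called higher and Mrps18a lower with 6 samples, and the rest were not called. Without 393P_vector replicate 3 Mrpl55 was called higher as well. For comparison, 18.3% of all tested genes were called higher and 19.3% lower, and 26.2% and 26.8% without that sample. The motif matches describe letters in the window and were not tested against the fold changes. No sequence is given for Mrpl13, Mrpl15, Mrpl19, Mrpl38, Mrpl4, Mrpl54, Mrps28, Mrps34 and Mrps35.

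Across the 76 members, 61 had a negative log2 fold change, and the median was -0.36 against -0.02 for all tested genes. By the test, 5 members were called higher (6.58%, with 18.3% of all tested genes called higher) and 16 were called lower (21.1%, with 19.3% of all tested genes called lower). In this fit the share called lower was thus near the background, and the share called higher was below it. In 31 members all 3 393P_ZEB1 samples lay below all 3 393P_vector samples, and in 7 they lay above, where 26.5% and 26.3% of all tested genes did so. Such a separation gives an exact permutation p of 0.1, two-sided, the smallest that 3 samples against 3 allow.

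Much of the downward median came with 1 sample. Without 393P_vector replicate 3 the median of the members was -0.15, against -0.01 for all tested genes, and 51 members were negative. In that fit 12 members were called higher (15.8%, with 26.2% of all tested genes) and 21 lower (27.6%, with 26.8% of all tested genes). All 5 members called higher and all 16 called lower with 6 samples were also called without it, in the same direction.

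**Figure D1:**
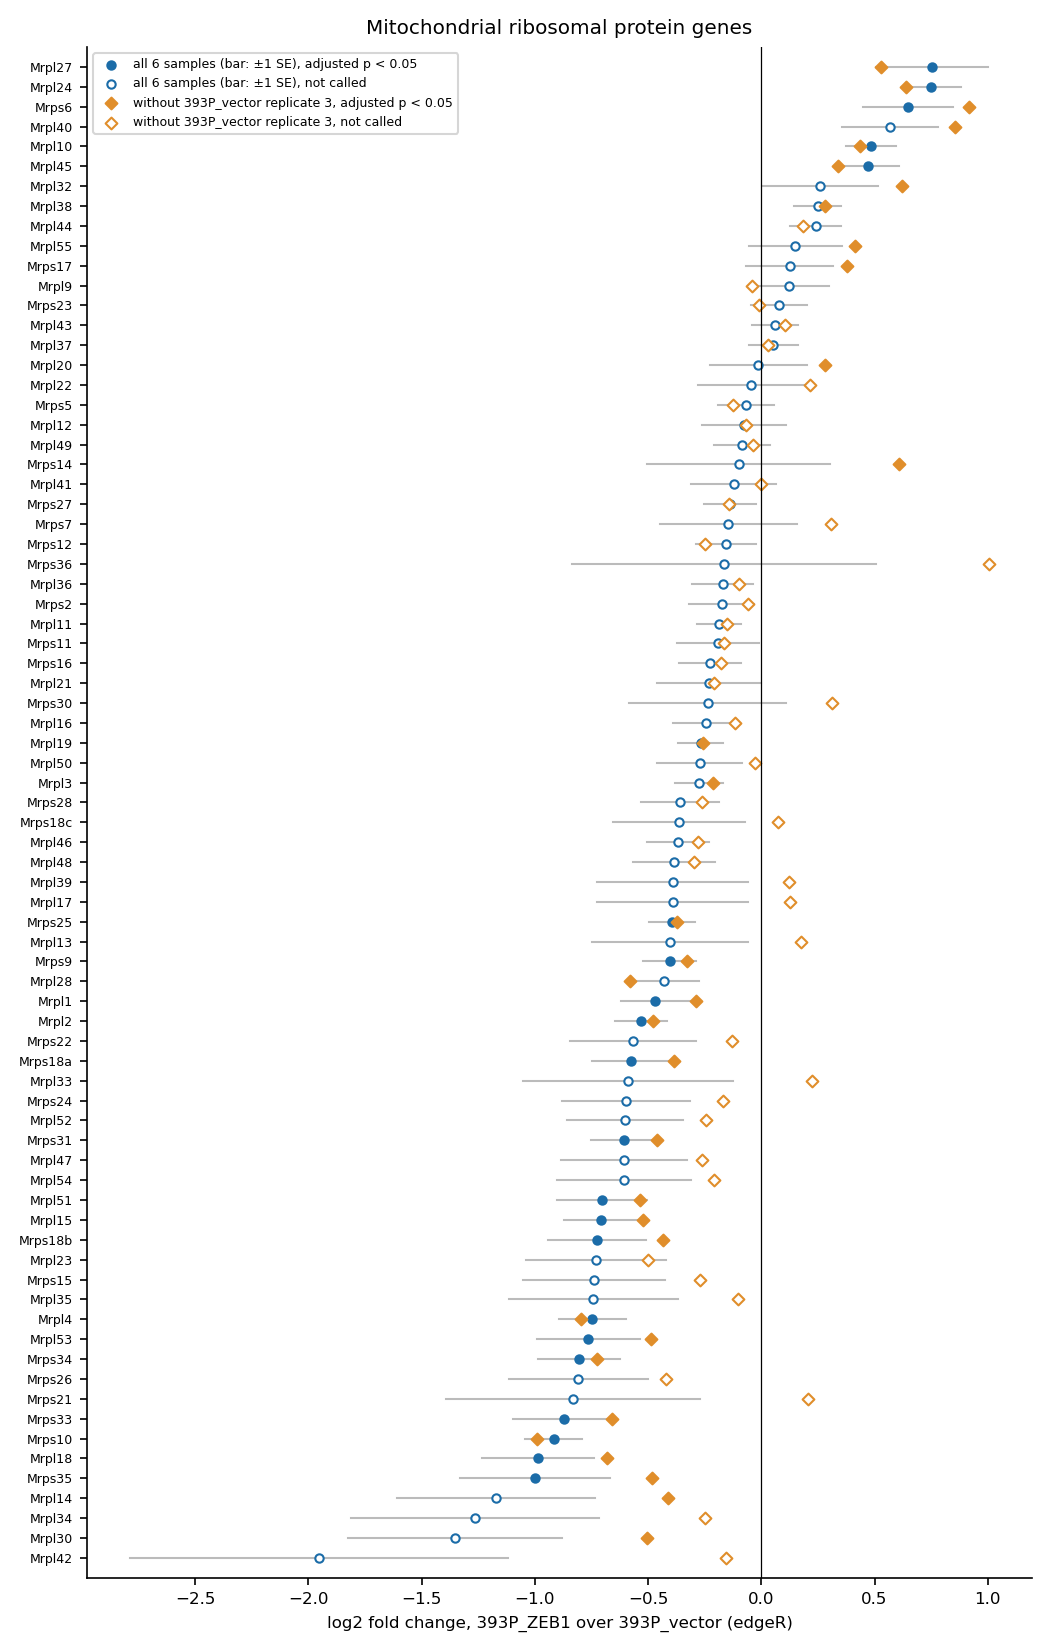
Log2 fold change (x axis) of each of the 76 members (y axis, ordered by the value with all 6 samples). Circles use all 6 samples, with bars of 1 standard error, diamonds leave out 393P_vector replicate 3, and filled symbols have an edgeR adjusted p below 0.05. With all 6 samples 16 filled circles lie below 0 and 5 above, and without replicate 3 many open symbols at the lower end shift toward 0, as for Mrpl42 from -1.95 to -0.16.

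393P_vector replicate 3 had the highest CPM of the 6 samples for 55 members (72.4%), against 27.7% of the other tested genes. Its CPM was a median of 1.41 times the mean of replicates 1 and 2 for members and 0.994 times for other genes. The largest gap was in Mrpl42, a protein of the large subunit found in mitochondria alone, which read 4.86, 2.65 and 31.4 CPM in the 3 393P_vector samples, in order of replicate, against 2.69, 3.91 and 3.49 CPM in those of 393P_ZEB1. That replicate was the only one of the 6 samples above 4.86 CPM, and Mrpl42 was not called in either fit. Summed over the members, CPM was 2326, 2456 and 3067 in the 393P_vector samples, in order of replicate, and 2222, 2388 and 2450 in those of 393P_ZEB1. The sums of the 2 groups overlapped, at 2616 ± 395 CPM in 393P_vector and 2353 ± 118 CPM in 393P_ZEB1 (SD, n = 3). Between the 393P_ZEB1 replicates no member differed 2-fold, whereas 18 did between 393P_vector replicates 1 and 3 and 17 between replicates 2 and 3.

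The excess in replicate 3 was largest in short genes. Members with under 700 bases of exon had a median ratio of 2.00 (n = 14), those from 700 to under 1000 bases 1.59 (n = 18), those from 1000 to under 1500 bases 1.16 (n = 23) and those of 1500 bases and over 1.26 (n = 21). Other tested genes of the same classes had medians of 1.35, 1.38, 1.13 and 0.962. Across members, exon length and the ratio had a Spearman rho of -0.326, against -0.21 across other tested genes. These points share the same 3 libraries, and the part of length in the excess was not tested. With all 6 samples the shortest class had a median log2 fold change of -0.67, and without replicate 3 it was -0.23.

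**Figure D2:**
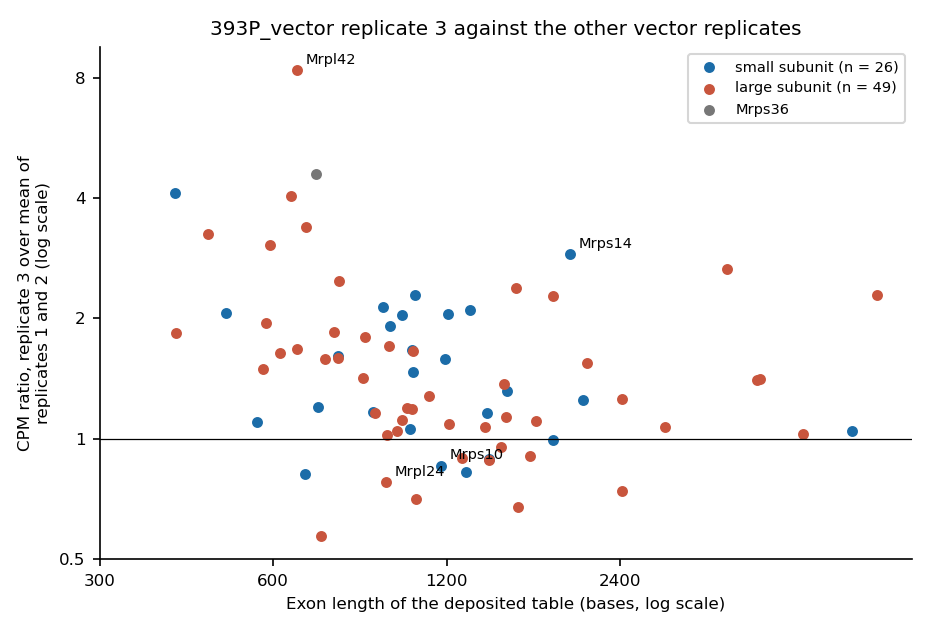
Ratio of the CPM in 393P_vector replicate 3 to the mean of replicates 1 and 2 (y axis, log scale) against the exon length in bases (x axis, log scale) for each member, 26 of the small subunit, 49 of the large subunit and Mrps36. Most points lie above 1, up to 8.36 for Mrpl42, while Mrpl24 and Mrps10 lie below 1.

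Among the 5 members called higher, Mrpl24 had the smallest adjusted p. Mrpl24, at chr3:87919544-87923433, is the homologue of a bacterial protein next to the exit tunnel. It measured 57.2, 64 and 47.1 CPM in the 3 393P_vector samples, in order of replicate, against 93.8, 92.4 and 97 CPM in those of 393P_ZEB1. All 393P_ZEB1 samples lay above all 393P_vector samples, replicate 3 of the vector being the lowest. The means were 56.1 ± 8.48 CPM in 393P_vector and 94.4 ± 2.38 CPM in 393P_ZEB1 (SD, n = 3). This gave a log2 fold change of 0.75 (SE 0.13, edgeR adjusted p = 0.00308), and 0.64 (edgeR adjusted p = 0.000102) without replicate 3. Mrpl24 overlaps Rrnad1 on the opposite strand, and whether the counting used strand is not given in the sources used here. Rrnad1 had 15.3 CPM in 393P_vector and 20.5 CPM in 393P_ZEB1 and was not called (edgeR adjusted p = 0.0917).

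Mrpl27, at chr11:94653791-94660087, is the homologue of a bacterial protein that reaches the peptidyl transferase centre. Its values were 8.57, 10.6 and 5.48 CPM in 393P_vector against 14.4, 11.7 and 15.5 CPM in 393P_ZEB1. The groups did not overlap, and the gap between the highest vector and the lowest ZEB1 sample was small. It had a log2 fold change of 0.76 (SE 0.25, edgeR adjusted p = 0.0455), and 0.53 (edgeR adjusted p = 0.014) without replicate 3. A processed pseudogene, Gm6304, matches 59.1% of its transcript at 98.9% identity, so that reads of both loci may have been shared.

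Mrps6, at chr16:92058336-92112227, belongs to the platform of the small subunit and was the 1 small-subunit member called higher. It read 22, 20.9 and 34.6 CPM in 393P_vector against 39.4, 41.6 and 40.6 CPM in 393P_ZEB1. All 393P_ZEB1 samples were above all vector samples, of which replicate 3 was the highest. The log2 fold change of 0.65 (SE 0.20, edgeR adjusted p = 0.0354) became 0.92 (edgeR adjusted p = 1.36e-05) without that sample. The row of Mrps6 overlaps Slc5a3, a myo-inositol transporter gene on the same strand, which rose from 83.6 to 176 CPM (log2 fold change 1.07, edgeR adjusted p = 0.000205). Reads from shared exons of these 2 rows cannot be told apart.

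Mrpl10, at chr11:97041586-97049213, forms the base of the flexible stalk that recruits translation factors. It measured 74, 79.1 and 69.1 CPM in 393P_vector against 93.5, 112 and 105 CPM in 393P_ZEB1. No vector sample reached the lowest ZEB1 sample, and the log2 fold change of 0.49 (SE 0.11, edgeR adjusted p = 0.0114) changed to 0.44 (edgeR adjusted p = 0.00267) without replicate 3. Mrpl45, at chr11:97315716-97329920, ties the exit tunnel to the inner membrane. It measured 85, 92.1 and 65.6 CPM in 393P_vector against 113, 107 and 116 CPM in 393P_ZEB1, without overlap between groups. The log2 fold change of 0.47 (SE 0.14, edgeR adjusted p = 0.0319) fell to 0.34 (edgeR adjusted p = 0.00471) without replicate 3. Mrpl10, Mrpl27 and Mrpl45 all lie on chromosome 11.

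The largest decreases past the threshold were in Mrps35 and Mrpl18, and both were larger with replicate 3 than without it. Mrps35, at chr6:147042770-147070902, is a small-subunit protein found in mitochondria alone. It read 14.4, 16.2 and 34.9 CPM in the 3 393P_vector samples, in order of replicate, against 9.48, 11.5 and 11.8 CPM in those of 393P_ZEB1. Replicate 3 was 2.28 times the mean of the other vector samples, and the groups did not overlap. It had a log2 fold change of -1.0 (SE 0.33, edgeR adjusted p = 0.0473), which without replicate 3 was -0.48 (edgeR adjusted p = 0.00996). Mrpl18, at chr17:12911355-12916091, belongs to the central protuberance of the large subunit. Its values were 23.4, 23.8 and 40.2 CPM in 393P_vector against 11.5, 15.9 and 16.7 CPM in 393P_ZEB1. Each vector sample exceeded each ZEB1 sample, with replicate 3 highest. The log2 fold change of -0.99 (SE 0.25, edgeR adjusted p = 0.0171) became -0.68 (edgeR adjusted p = 0.00303) without replicate 3.

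Mrps10 was the decrease with the smallest adjusted p, and for it replicate 3 was the lowest vector sample. Mrps10, at chr17:47368887-47378679, sits in the head of the small subunit. It measured 21, 22.6 and 18.7 CPM in the 3 393P_vector samples, in order of replicate, against 11.4, 11.1 and 10.5 CPM in those of 393P_ZEB1. The lowest vector sample stood well above the highest ZEB1 sample. The means were 20.8 ± 1.99 CPM in 393P_vector and 11 ± 0.435 CPM in 393P_ZEB1 (SD, n = 3). The log2 fold change of -0.92 (SE 0.13, edgeR adjusted p = 0.000983) was -0.99 (edgeR adjusted p = 2.45e-05) without replicate 3. A processed pseudogene matches 50.1% of the Mrps10 transcript at 97.8% identity. Mrpl4, at chr9:21002737-21008837, whose bacterial homologue lines the exit tunnel, gave a comparable picture. Its values were 22.6, 25.5 and 21.5 CPM in 393P_vector against 11.8, 15.9 and 13.8 CPM in 393P_ZEB1. Replicate 3 was again the lowest vector sample, and the log2 fold change of -0.75 (SE 0.15, edgeR adjusted p = 0.00588) was -0.80 (edgeR adjusted p = 0.000565) without it.

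Mrps34, at chr17:24895120-24896273, is a small-subunit protein that lacks a bacterial homologue. It read 21.7, 23.5 and 26.4 CPM in 393P_vector against 10.5, 14.1 and 16.3 CPM in 393P_ZEB1. The groups were apart, although the 393P_ZEB1 samples spread more than those of Mrps10. The log2 fold change of -0.81 (SE 0.18, edgeR adjusted p = 0.0105) was -0.73 (edgeR adjusted p = 0.00393) without replicate 3. A transcript of Mapk8ip3 matches 54.9% of the Mrps34 transcript at 100% identity. Mrpl2, at chr17:46646248-46650132, supports the peptidyl transferase centre. It measured 36.5, 35.8 and 40.3 CPM in 393P_vector against 23.8, 27.7 and 26.3 CPM in 393P_ZEB1. With no overlap between the groups, it had a log2 fold change of -0.53 (SE 0.11, edgeR adjusted p = 0.0086), and -0.48 (edgeR adjusted p = 0.00185) without replicate 3. Mrps10, Mrps34, Mrpl2, Mrpl4 and Mrpl24 were the 5 members called in each of the 6 fits that left out 1 sample. Of the 5 calls higher and 16 lower, 2 and 14 were kept without 393P_vector replicate 1, 4 and 14 without replicate 2, and 5 and 16 without replicate 3. For 393P_ZEB1 they were 2 and 5 without replicate 1, 1 and 7 without replicate 2, and 2 and 6 without replicate 3. Mrpl24 was the increase kept in each fit. Mrpl10 lost its call without 393P_ZEB1 replicate 2, and Mrpl15 without 393P_ZEB1 replicate 1. Mrps35, Mrpl53, Mrps18a and Mrps18b lost theirs without any one of the 393P_ZEB1 samples, and so did Mrpl1, Mrps9, Mrpl27, Mrpl45, Mrps25 and Mrps6, which also lost them without 393P_vector replicate 1 (Mrpl1, Mrpl27, Mrpl45), replicate 2 (Mrps9) or either (Mrps25, Mrps6). Mrpl18 lost its call without 393P_ZEB1 replicate 1 or 2, Mrpl51 and Mrps31 without replicate 1 or 3, and Mrps33 without replicate 2 or 3.

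**Figure D3:**
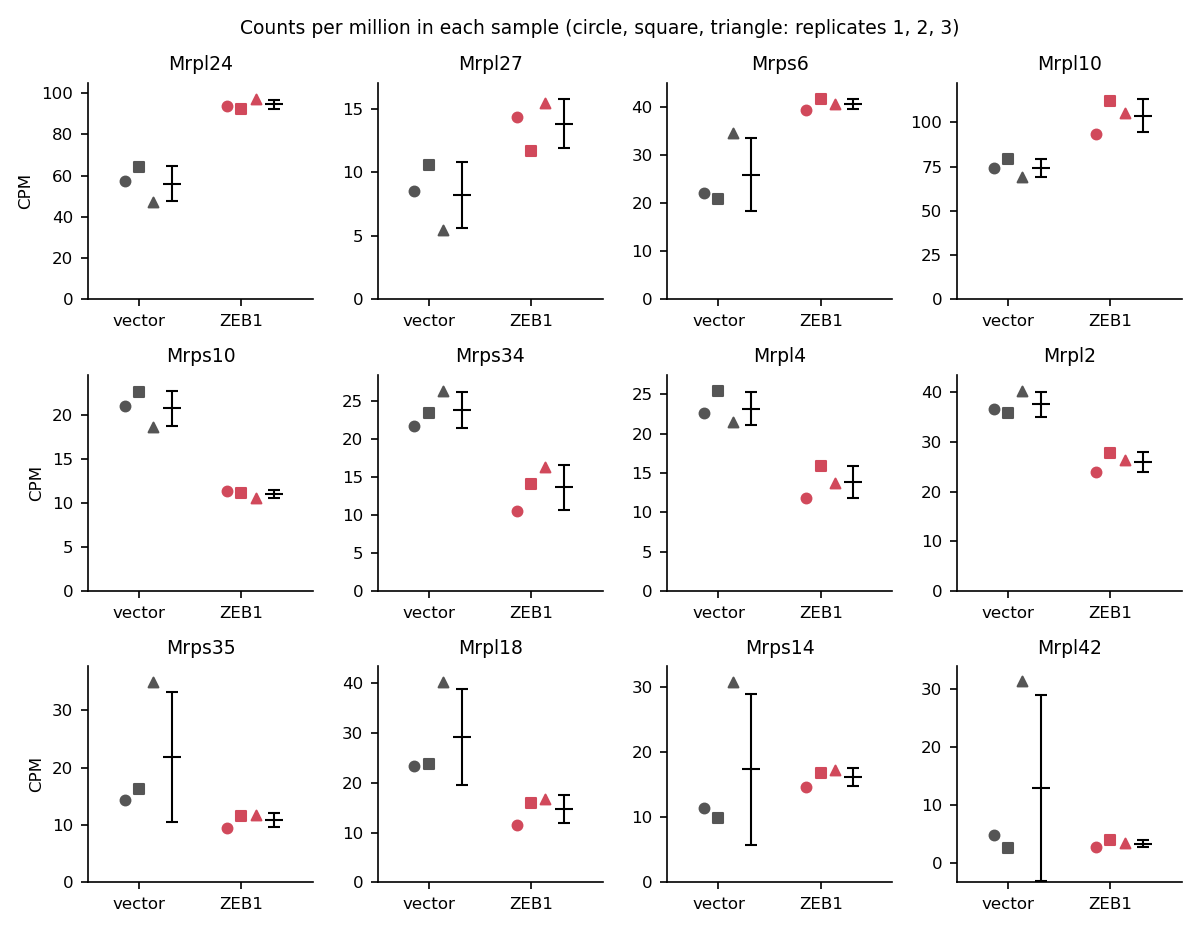
CPM (y axis, linear) of 12 members in each of the 6 samples, with the mean and SD of each group (n = 3) as a bar beside the points. Circles, squares and triangles are replicates 1, 2 and 3. Mrpl24 and Mrps10 show groups apart with a low vector triangle, whereas Mrps14 and Mrpl42 show 1 high vector triangle and overlapping groups.

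Mrps33, a mitochondrion-specific small-subunit protein, read 3.43, 3.5 and 5.09 CPM in 393P_vector against 2.47, 1.82 and 2.29 CPM in 393P_ZEB1, low values without overlap. It had a log2 fold change of -0.87 (SE 0.22, edgeR adjusted p = 0.0185), and -0.66 (edgeR adjusted p = 0.0109) without replicate 3. Mrpl53, a mitochondrion-specific protein of the large subunit, measured 19.8, 23 and 35.1 CPM in 393P_vector against 12.9, 15.9 and 17.1 CPM in 393P_ZEB1. Its groups did not overlap either. Its log2 fold change of -0.76 (SE 0.23, edgeR adjusted p = 0.0325) was -0.49 (edgeR adjusted p = 0.0115) without replicate 3, and it overlaps Ccdc142 on the same strand. Ccdc142 had 4.58 CPM in 393P_vector and 2.77 CPM in 393P_ZEB1, with a log2 fold change of -0.73 (edgeR adjusted p = 0.0564) that was -0.95 (edgeR adjusted p = 0.000648) without replicate 3. Reads from shared exons of the 2 rows cannot be told apart. The other members called lower were Mrpl15, Mrpl1 and Mrps9, which have bacterial homologues, Mrpl51, Mrps31 and Mrps25, which lack them, and Mrps18a and Mrps18b. Their log2 fold changes ran from -0.72 for Mrps18b to -0.39 for Mrps25. Without replicate 3 the same 8 genes ran from -0.54 for Mrpl51 to -0.29 for Mrpl1. Mrps25 overlaps Nr2c2 on the opposite strand, and an Nr2c2 transcript matches 58.2% of the Mrps25 transcript at 100% identity. Nr2c2 had 89.1 CPM in 393P_vector and 85.0 CPM in 393P_ZEB1 and was not called (edgeR adjusted p = 0.661). Mrps25 had 34.1 and 26.0 CPM, in the same order.

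Leaving out replicate 3 added 12 calls, 7 higher and 5 lower. The largest moves among them were in Mrpl30, Mrpl14 and Mrps14. Mrps14, a protein of the small-subunit head, read 11.3, 9.91 and 30.7 CPM in the 3 393P_vector samples, in order of replicate, against 14.7, 16.8 and 17.2 CPM in those of 393P_ZEB1. Replicates 1 and 2 of the vector lay below all ZEB1 samples, and replicate 3 lay above them. Its log2 fold change went from -0.10 (edgeR adjusted p = 0.869) to 0.61 (edgeR adjusted p = 0.00209). Mrpl30 and Mrpl14, both homologues of bacterial large-subunit proteins, stayed negative and moved toward 0. Mrpl30 went from -1.35 (edgeR adjusted p = 0.0575) to -0.50 (edgeR adjusted p = 0.0106), and Mrpl14 from -1.17 (edgeR adjusted p = 0.0708) to -0.41 (edgeR adjusted p = 0.0317). Mrpl40 read 18.2, 18 and 29.9 CPM in 393P_vector against 29.4, 34.9 and 33.9 CPM in 393P_ZEB1. It was not called with 6 samples (log2 fold change 0.57, edgeR adjusted p = 0.0714). Without replicate 3, the only vector sample within the range of 393P_ZEB1, it reached 0.85 (edgeR adjusted p = 7.68e-05).

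By subunit, 1 of 26 small-subunit members was called higher and 8 lower, with a median log2 fold change of -0.38 that was -0.17 without replicate 3. Of 49 large-subunit members 4 were called higher and 8 lower, with a median of -0.28 that was -0.10 without it. Without replicate 3 the calls were 3 higher and 8 lower in the small subunit and 9 higher and 13 lower in the large subunit. For comparison, 18.3% of all tested genes were called higher and 19.3% lower with 6 samples, and 26.2% and 26.8% without replicate 3. The 47 members with a bacterial homologue (4 higher, 9 lower) had a median of -0.36, and the 28 without one (1 higher, 7 lower) had -0.38. Their shares called lower, 19.1% and 25%, stand beside the 19.3% of all tested genes. Without replicate 3 these medians were -0.17 and -0.14, with 8 higher and 14 lower among the former and 4 and 7 among the latter. Mrps36, now assigned to the oxoglutarate dehydrogenase complex, is in neither subunit list.

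Of the 3 stalk and stalk-base members only Mrpl10 was called. Mrpl12, which forms the stalk itself, read 72.5, 84.3 and 80.2 CPM in 393P_vector against 54.7, 79.5 and 90.5 CPM in 393P_ZEB1, and its groups overlapped, with a log2 fold change of -0.08 (SE 0.18, edgeR adjusted p = 0.774) that was -0.07 (edgeR adjusted p = 0.816) without replicate 3. Mrpl11, the other stalk-base protein, had means of 67.1 ± 2.98 CPM in 393P_vector and 59 ± 0.972 CPM in 393P_ZEB1 (SD, n = 3) and a log2 fold change of -0.19 (SE 0.10, edgeR adjusted p = 0.162), and -0.15 (edgeR adjusted p = 0.12) without replicate 3. Around the peptide exit tunnel, Mrpl24 and Mrpl45 were called higher, while Mrpl22 had -0.04 (edgeR adjusted p = 0.9) and Mrpl23 -0.73 (edgeR adjusted p = 0.102) and were not called. Without replicate 3 Mrpl22 had 0.22 (edgeR adjusted p = 0.287) and Mrpl23 -0.50 (edgeR adjusted p = 0.252). These values describe single genes, and no difference between the roles was tested.

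Mammalian mitoribosomes carry 3 homologues of bacterial protein S18, each at its own site. Mrps18b measured 23.9, 27.2 and 42.5 CPM in 393P_vector against 17.5, 19.6 and 19.6 CPM in 393P_ZEB1. Each vector sample was above each ZEB1 sample, with a log2 fold change of -0.72 (SE 0.22, edgeR adjusted p = 0.0331) and -0.43 (edgeR adjusted p = 0.0061) without replicate 3. Mrps18a, which sits in the large subunit, measured 22.6, 23 and 32.4 CPM in 393P_vector against 15.6, 19.3 and 17.5 CPM in 393P_ZEB1. It was called lower as well, with a log2 fold change of -0.57 (SE 0.17, edgeR adjusted p = 0.0347) and -0.38 (edgeR adjusted p = 0.015) without replicate 3. Mrps18c read 8.07, 9.45 and 18 CPM in 393P_vector against 8.92, 9.36 and 9.42 CPM in 393P_ZEB1, and apart from replicate 3 its samples overlapped. It was not called with replicate 3, at -0.36 (edgeR adjusted p = 0.36), or without it, at 0.07 (edgeR adjusted p = 0.645). Mrps18a and Mrps18b lie on chromosome 17 and Mrps18c on chromosome 5, and all 3 promoters hold the ETS core.

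Other members with named roles did not pass the test. Mrps12, of the decoding centre, had means of 22.5 ± 2.63 CPM in 393P_vector and 20.2 ± 1.41 CPM in 393P_ZEB1 (SD, n = 3), with a log2 fold change of -0.16 (SE 0.13, edgeR adjusted p = 0.387) and -0.25 (edgeR adjusted p = 0.0636) without replicate 3. Mrpl44, which has a ribonuclease III fold, had 27.3 ± 1.87 CPM in 393P_vector and 32.2 ± 1.71 CPM in 393P_ZEB1 (SD, n = 3), with a log2 fold change of 0.24 (SE 0.11, edgeR adjusted p = 0.132) and 0.18 (edgeR adjusted p = 0.118) without replicate 3. Mrps30, a large-subunit protein despite its name, read 31.8, 35 and 79.6 CPM in 393P_vector against 33.2, 47.4 and 43.8 CPM in 393P_ZEB1. Replicate 3 was the highest of all samples. Its log2 fold change was -0.24 (edgeR adjusted p = 0.628) with 6 samples and 0.31 (edgeR adjusted p = 0.0897) without replicate 3.

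Per kilobase of exon, the members spanned more than 100-fold. The level per kilobase, as a mean of the 6 samples in CPM per kilobase, was highest for Mrpl28 (97.5), Mrpl20 (82.4) and Mrpl12 (81.5), proteins of the large subunit. Over samples Mrpl28 ranged from 80.4 to 133, Mrpl20 from 67.2 to 113 and Mrpl12 from 57.9 to 95.8 CPM per kilobase, so that these neighbours overlapped. The lowest were Mrpl48 (2.29), Mrps36 (1.32) and Mrpl23 (0.76). Mrpl48 ranged from 1.72 to 2.89 and Mrps36 from 0.31 to 2.87, so that their ranges overlapped each other. Mrpl23 ranged from 0.426 to 1.21 CPM per kilobase and rested on 15 to 58 counts per sample, within the range of Mrps36. In log2 fold change, Mrpl28 went from -0.43 (edgeR adjusted p = 0.0628) with 6 samples to -0.58 (edgeR adjusted p = 0.000251) without 393P_vector replicate 3. Mrpl20 went from -0.01 (edgeR adjusted p = 0.968) to 0.28 (edgeR adjusted p = 0.0309). Mrpl48, at -0.38 and -0.30, and Mrps36, at -0.16 and 1.01, were called in neither fit.

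These 3 lowest members, together with Mrpl27, are the 4 members for which RefSeq names a pseudogene. In GENCODE M21, 10 of the 76 members have another gene whose transcript matches at least 50% of theirs at 95% identity or more. Mrpl23-ps1 matches 85.9% of the Mrpl23 transcript at 100% identity. The 10 are Mrpl22, Mrpl23, Mrpl27, Mrpl42, Mrpl53, Mrps10, Mrps18b, Mrps21, Mrps25 and Mrps34. Of the 3 lowest members only Mrpl23 is among these, as no match at this threshold was found for Mrpl48 and Mrps36. For 6 of the 10 the match is a processed pseudogene. The median level of the 10 was 14.4 CPM per kilobase and that of the rest 23.4. How reads with several matches were counted is not given in the sources used here, so levels of these members are uncertain.

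The median of the members and that of the other tested genes had the same sign on most of the 17 chromosomes that hold members. They had opposite signs on 5 of them with 6 samples (1, 3, 4, 5 and 13) and on 3 without replicate 3 (1, 3 and 15). The chromosomes with the most calls among members also had many calls among other genes. Other chromosomes had like shares but no member called with 6 samples. On chromosomes 10, 14 and 15, with 2, 2 and 1 members, 32.0%, 32.9% and 37.3% of other genes were called lower. On chromosome 13, with 5 members, 28.75% of other genes were called higher. On chromosome 17 all 8 members were negative, 6 of them called lower with 6 samples and 8 without replicate 3. Of the other genes there, 36.4% and 52.9% were called lower in these fits. The median of the 8 members without that sample was -0.53, against -0.39 for the 667 other tested genes of the chromosome. On chromosome 6, 5 of 7 members were called lower with 6 samples and 6 without replicate 3, with a median without it of -0.48 against -0.30 for 663 other genes, of which 35.0% and 46.3% were called lower. On chromosome 11 no member was called lower, 3 of 10 were called higher and 5 without replicate 3, with a median without it of 0.29 against 0.26 for 1146 other genes, of which 29.3% and 43.98% were called higher. On chromosome 16 the 3 members had a median without replicate 3 of 0.85 against 0.27 for 429 other genes. With 6 samples the medians of members were -0.77 on chromosome 17, -0.74 on 6, 0.11 on 11 and 0.57 on 16. Those of the other genes there were -0.43, -0.35, 0.27 and 0.25, in the same order. Chromosomes 6 and 17 held 11 of the 16 members called lower. Without replicate 3, the 5 members on chromosome 1 had a median of -0.33 and 803 other genes 0.09, the 5 on chromosome 3 had -0.04 against 0.14, and the 1 on chromosome 15, Mrpl13, had 0.18 against -0.39. The part of a gene's chromosome in these values was not tested.

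**Figure D4:**
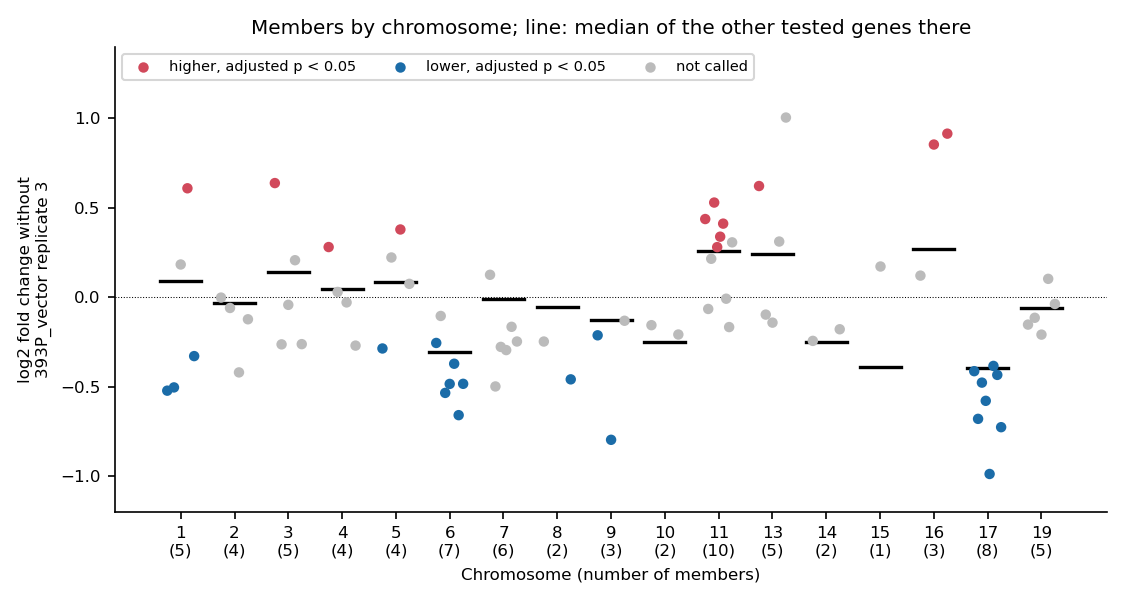
Log2 fold change without 393P_vector replicate 3 (y axis) of each member by chromosome (x axis, number of members in brackets), red where called higher, blue where called lower and grey where not called. Black lines are the median of the other tested genes of that chromosome. All 8 members on chromosome 17 are blue and lie near or below a line at -0.39, and on chromosome 11 the line is at 0.26 with 5 red points.

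Many members start next to a gene read in the opposite direction. A divergent start within 1000 bases was found for 26 of the 76 members (34.2%) and for 13.5% of all tested genes. In 23 pairs, the Mrpl46 and Mrps11 pair counted once, both genes were tested. The log2 fold changes of member and neighbour without replicate 3 had a Pearson r of 0.649 and the same sign in 15 pairs, and with 6 samples these were 0.646 and 18. After the median of the other genes of the chromosome was subtracted from both, r was 0.411, and 0.405 with 6 samples. The points share libraries and, in part, chromosomes. Mrpl51 (-0.54) and Ncapd2 (-0.73), a condensin subunit, start 614 bases apart and were both called lower, at -0.71 and -0.55 with 6 samples. Mrpl27 (0.53) and Eme1 (0.38), a subunit of a DNA junction nuclease, start 37 bases apart and were both called higher, at 0.76 and 0.38 with 6 samples. Mrpl46 (-0.28) and Mrps11 (-0.17), whose starts are 42 bases apart, were not called, nor were they with 6 samples, at -0.37 and -0.19. The helicase gene Helq was called lower in both fits, at -0.55 with 6 samples and -0.61 without replicate 3, while its neighbour Mrps18c was called in neither, at -0.36 and 0.07.

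**Figure D5:**
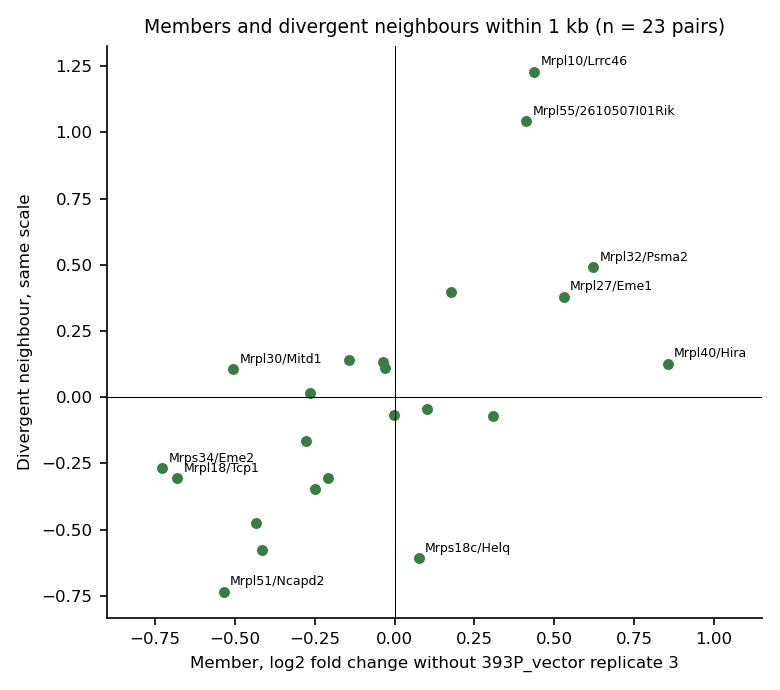
Log2 fold change without 393P_vector replicate 3 of each member (x axis) and of its divergent neighbour within 1000 bases (y axis) for 23 pairs. Of these, 15 share a sign, with Mrpl51 and Ncapd2 at the lower left, Mrpl10 and Lrrc46 at the upper right and Mrps18c and Helq at the lower right.

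Other nuclear genes for ribosomal proteins and mitochondrial complexes shared the replicate 3 excess. Replicate 3 was the highest sample for 71.4% of 84 tested cytosolic ribosomal proteins and for 71.6% of 74 nuclear-encoded oxidative phosphorylation subunits. The cytosolic ribosomal proteins (4 called higher, 10 lower) had a median log2 fold change of -0.27 that was 0.01 without replicate 3, with 13 called higher and 10 lower. The oxidative phosphorylation subunits (5 higher, 9 lower) had -0.33 and -0.01, with 10 higher and 15 lower without it. All these shares lie below those of all tested genes, of which 18.3% were called higher and 19.3% lower, and 26.2% and 26.8% without replicate 3. The members kept a median of -0.15 without replicate 3. This order of medians was not tested.

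Proteins that work with the mitoribosome were called in both directions, and several lists had more calls without replicate 3. Beside the counts below, 18.3% of all tested genes were called higher and 19.3% lower with 6 samples, and 26.2% and 26.8% without replicate 3. Of 5 mitoribosomal proteins with another symbol, Ptcd3 (log2 fold change -0.49, edgeR adjusted p = 0.0462) and Gadd45gip1 (-0.63, 0.00747) were called lower. Without replicate 3, 1 was called higher and 2 lower. Of 25 assembly and RNA modification factors, Mterf4, listed as Mterfd2, was called higher (0.48, 0.0114) and the nuclease Ybey lower (-0.44, 0.0411). Without replicate 3 the list had 6 higher and 3 lower. Of 14 translation factors, the initiation factor Mtif2 was called higher (0.59, 0.0114) and the release factor Mtrf1 lower (-0.85, 0.0479), with 1 higher and 2 lower without replicate 3. Of 17 mitochondrial aminoacyl-tRNA synthetases, 5 were called higher, led by Fars2 (0.74, 0.00219), and 2 lower, led by Mars2 (-1.32, 0.00107). Without replicate 3 these were 5 and 5. Of 4 genes for mitochondrial transcription, Tfam was called lower (-0.40, 0.0353), and 2 were higher and 2 lower without replicate 3. Among 9 regulators, Gabpa, the DNA-binding subunit of GABP, was called higher (0.84, 0.00289), while Ppargc1b (-1.95, 0.000565) and Nrf1 (-0.45, 0.0258) were called lower, with 1 higher and 4 lower without replicate 3. The second value in each bracket is the edgeR adjusted p, and all 12 genes named here kept their call without replicate 3.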

How the data were processed

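Total RNA of 3 393P_vector and 3 393P_ZEB1 samples was sequenced, and groups were taken from the label that names the transfected vector. Per sample, the authors deposited raw read counts over RefSeq features and an RPKM, which is the count scaled by exon length and total reads and was only described here. The aligner, the counting program, its use of strand and its handling of reads with several matches are not given in the sources used here. Coordinates match GRCm38.

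Counts were tested as deposited with edgeR 4.0.16 in R 4.3.3 (filterByExpr with a minimum count of 10, TMM, robust quasi-likelihood fit, condition as the only term, Benjamini-Hochberg over 13892 genes). The procedure was tested on simulated data. The simulated counts had less spread between replicates than these data and no outlying sample, so the check does not cover 393P_vector replicate 3. CPM of 3 counts, the smallest number treated as detected, was between 0.0361 and 0.0561, which covers counting error only. Deviations from the group means had r of 0.195, -0.126 and -0.0276 between samples of equal number. Between samples of unequal number r ran from -0.12 to 0.157. These values cannot show whether equal numbers share a batch, and the main fit had no block. Alternatives were DESeq2 1.42.0 (Wald test, and its size factors in edgeR), limma 3.58.1 (voom with sample weights), upper-quartile factors, other filters, a replicate block, stricter thresholds, the 10 most counted genes left out and each sample left out in turn. Transcripts of members were searched against GENCODE M21 with blastn at 95% identity over 50% of their length. Named genes were the up to 8 largest increases and decreases past the threshold with groups apart, the 3 highest and 3 lowest levels per kilobase, members with set roles, the 3 largest moves without 393P_vector replicate 3 and the leading genes of each list. Other members, among them Mrpl42, Mrpl40, Mrps21 and Mrpl2, were named from the results, outside these criteria. Members and lists were chosen with earlier results of these data known.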

Additional observations from a re-analysis of the deposited data

How the results depend on the processing

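With all 6 samples, the counts of members called stayed within 1.5 times and their median stayed negative under DESeq2 size factors, upper-quartile factors, the DESeq2 Wald test, both filters and the 10 most counted genes left out. Relative to the other genes of each chromosome the median with all 6 samples was -0.3071. Without 393P_vector replicate 3 that relative median lay between the values of Mrps25 (-0.068) and Mrpl16 (-0.052). limma voom with sample weights called 12 members higher and 22 lower and gave a median of -0.1193. It called 3977 of 13892 tested genes higher and 4094 lower. A test against a fold change of 1.5 called 0 members higher and 1 lower (all genes 1081 and 1118), and a threshold of 0.01 called 1 and 3 (all genes 1584 and 1545). Leaving out 1 sample at a time gave 1 to 12 members higher, 5 to 21 lower, a median of -0.4072 to -0.1478, and 1784 to 3776 of all tested genes lower. Each upper end, and the median nearest 0, came without 393P_vector replicate 3, and 2 members were higher without 393P_vector replicate 1. Without 393P_ZEB1 replicates 1, 2 and 3 in turn, 2, 1 and 2 members were higher and 5, 7 and 6 lower. Of 14196, 14208 and 14157 tested genes, 1872, 1889 and 1861 were higher and 1841, 1801 and 1784 lower. In these fits both shares of members were below those of all tested genes. Without 393P_vector replicates 1 and 2 in turn, 17 and 18 members were lower, with 2199 and 2357 of all tested genes. There the share of members called lower was above that of all tested genes. Without 393P_vector replicate 3 the sign changed for 14 members, of which 0 were called with 6 samples and 2, Mrpl20 and Mrps14, were called higher without it. Mrps21 went from -0.83 to 0.21. Over all single-sample leave-outs Mrpl20 ranged from -0.1401 to 0.2807 and Mrps14 from -0.376 to 0.6095, each positive without replicate 3, and Mrps14 was 0.5647 with voom. The cause was not tested. With the replicate block, 4 members were called higher and 16 lower, with 2180 and 2256 of 13892 tested genes. The median of the members was -0.2762, and 3 and 13 of their calls were shared with the unblocked calls. Among the 29 named members, the block ended the calls of Mrpl27 and Mrpl45 and added those of Mrpl14 and Mrpl30. Calls of other members changed as well. For 29 named members, 384 of 464 alternatives kept direction and side of the threshold. Counts per sample limit Mrpl23 and Mrps36 most.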

Other observations

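Mitoribosomal proteins that the tables list under older symbols fall outside the naming rule. Ict1, an older symbol of Mrpl58 and a peptidyl-tRNA hydrolase built into the large subunit, had 18.6, 17.6 and 20.5 CPM in the 393P_vector samples and 23.5, 22.3 and 23.7 CPM in the 393P_ZEB1 samples. The groups were apart, but Ict1 was not called with 6 samples (log2 fold change 0.30, edgeR adjusted p = 0.0782) and was called without replicate 3 (0.36, edgeR adjusted p = 0.01). Mrp63, now Mrpl57, had 7.43 ± 0.848 CPM in 393P_vector and 5.86 ± 0.842 CPM in 393P_ZEB1 (SD, n = 3), with overlapping groups (log2 fold change -0.34, edgeR adjusted p = 0.147), and was called lower without replicate 3 (-0.42, edgeR adjusted p = 0.0351). Among the members, the Spearman rho of exon length with the log2 fold change was 0.234 with 6 samples and 0.0368 without replicate 3, a description over 76 genes of the same libraries.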
